A study of Sus scrofa with 189 samples.

Results

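The genes described here are those for which the deposited transcript table of pig longissimus dorsi muscle lists 5 or more transcripts and gives a gene symbol. There were 138 such genes among 12651 in the table (1.09%), and they held 813 of its 18114 transcripts (4.49%). Of the 138, 67 had 5 listed transcripts, 38 had 6, 20 had 7, 8 had 8 and 4 had 9, and ALDOA alone had 10. Another 33 genes with 5 or more transcripts carried no symbol and were left out, and 211 named genes with 4 transcripts lay just outside the rule. The quantity followed was the transcript share, the FPKM of 1 transcript as a percentage of the summed FPKM of all listed transcripts of its gene in the same animal. FPKM is the number of fragments scaled by transcript length and by the size of the library.

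Most mammalian genes give rise to several mature RNAs through alternative promoters, alternative splicing and alternative polyadenylation. Skeletal muscle is known for this: troponin T, tropomyosin and the proteins of the Z-disc are made in tissue- and stage-specific forms, and RNA-binding proteins of the MBNL, CELF and RBFOX families direct many of these choices. In short-read data the transcript of origin is not read directly but estimated, because most reads fit several transcripts of a gene.

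The study sequenced polyA RNA from the loin muscle of 189 first-generation crossbred pigs, sired by 8 Duroc boars out of Luchuan sows, to relate genotype to expression and meat quality. The labels give 158 sows in 1 place and 112 in another, and 265 crossbred animals bred in all. All animals were raised on 1 farm on the same diet and slaughtered at 210 ± 6 days, with muscle taken within 25 minutes. No treatment was applied, and no group served as a control. Of the 189 libraries, 143 had no mark in their title and an IMF (intramuscular fat) content label, 21 were marked as re-analyzed in their title and also had an IMF label, and 25 were unmarked without IMF. The labels do not say what the mark means or in which unit IMF was given. IMF averaged 3.40 ± 1.13 (SD, n = 164), with a median of 2.33 (0.77 to 6.84) in the re-analyzed and 3.29 (1.19 to 5.61) in the unmarked animals. No re-analyzed animal lay between 2.33 and 4.83, so that set held low and high IMF values and none near the average. The first 9 digits of each title form a code shared by 2 to 7 animals in 48 cases (146 animals) and held by 1 animal in 43 cases. The labels explain neither the code nor which animals share a parent, so all p-values treat the animals as independent.

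Summed FPKM ran from 364109 to 465105 per library, and no 2 of the 17766 pairs of libraries held identical values. Counts were not used here, so the read depth behind a share is unknown. No listed transcript of the table was at 0 in more than 9.52% of the libraries. The number of genes with a summed value of at least 1 FPKM ran from 7803 to 10614 per library (median 9152). The tissue label was checked against 7 fibre markers, all measured, which summed to 26227 to 75772 FPKM in the re-analyzed and 30106 to 101499 FPKM in the unmarked libraries. The leading transcript of each gene, defined as the one with the highest median share, led 91 to 122 of the 138 genes in a library (median 106). The unmarked library of sample 39, which stood apart in an earlier look at these data, was at the lower end with 91, as was the unmarked library of sample 61, which has no IMF label. Sample 61 also had the largest mean deviation from the median shares, 7.93 percentage points against a median of 4.90 over libraries and 6.13 for sample 39. Each test was repeated without sample 39, and those that include sample 61 also without it.

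Leading transcripts seldom held nearly all of a gene. The median share of the leading transcript had a median of 45.2% over the 138 genes, and ranged from 22.1% for MAPKAP1, a subunit of the mTORC2 kinase complex, to 94.3% for the tropomyosin gene TPM1. It was above 50% in 62 genes. The effective number of transcripts, the inverse of the sum of squared shares, had a median of 2.80 and ranged from 1.12 to 5.21. Of the 813 transcripts, 428 had a median share under 10% and 72 under 1%, and 383 led in no animal.

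Genes with fewer listed transcripts had larger leading shares, which follows in part from dividing by fewer transcripts. The median leading share was 82.9% in 2285 genes with 2 transcripts, 63.3% in 741 genes with 3 and 54.4% in 238 genes with 4. The spread between animals did not follow this order. The median SD of the leading share was 11.7 percentage points in the 138 genes, against 12.3, 14.1 and 13.2 points in those 3 classes. The classes also differed in level, with median mean gene sums of 22.3 FPKM against 6.07, 9.18 and 15.1 FPKM. The part of level in these SDs was not tested. The leading transcript was also the longest listed one in 15 of the 138 genes (10.9%), compared with 46.6%, 26.3% and 18.9% in the genes with 2, 3 and 4 transcripts. It had the most exons in 53 (38.4%), compared with 69.8%, 52.9% and 42.4% in those classes. Both percentages can fall with the number of listed transcripts alone, because each transcript then has a smaller chance to be the longest. The rates from a random pick were not computed, so these values are not read as a trait of the 138 genes.

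The listed forms of a gene mostly differed in their listed ends. The 813 models were 266 to 16269 bases long (median 4071) and had 2 to 58 exons (median 14). A gene had 1 to 10 distinct 5′ starts (median 5) and 1 to 8 distinct 3′ ends (median 4), and in 56 genes every listed transcript had its own start. The leading and second transcripts shared neither start nor end in 115 genes, the start in 9 and the end in 18. They shared both in 4: TSC2, SPTAN1, HSP90AB1 and PDLIM5. Ends were compared by exact position, so small differences count, and the positions of exons were not compared. A share in these genes therefore usually contrasted models with different listed ends. Whether they differ by a single exon is not known.

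The shares differed widely between the libraries of the animals. No repeat library of an animal is listed, and the shares are estimates. The spread therefore includes error in read assignment, which cannot be separated here from differences between animals. The SD of the leading share ran from 1.97 points for PDLIM7 to 34.0 points for UBTF, and in 88 genes the highest and lowest animals were more than 50 points apart. It was above 20 points in 19 genes and below 5 in 11. One transcript led in all 189 animals in 22 genes, whereas in 21 genes the usual leader led in fewer than 50% of them. The lowest such count was 60 animals for MBD1, a methyl-CpG binding protein, whose second transcript led in 63. Genes with higher sums tended to vary less: the Spearman correlation of the SD with the mean gene sum was −0.40 over the 138 genes, given as a description because the genes share libraries. With the median leading share the correlation of the SD was −0.24. Medians of the SD were 13.6, 11.4 and 8.19 points in the 46 genes with the lowest, middle and highest sums.

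**Figure D1:**
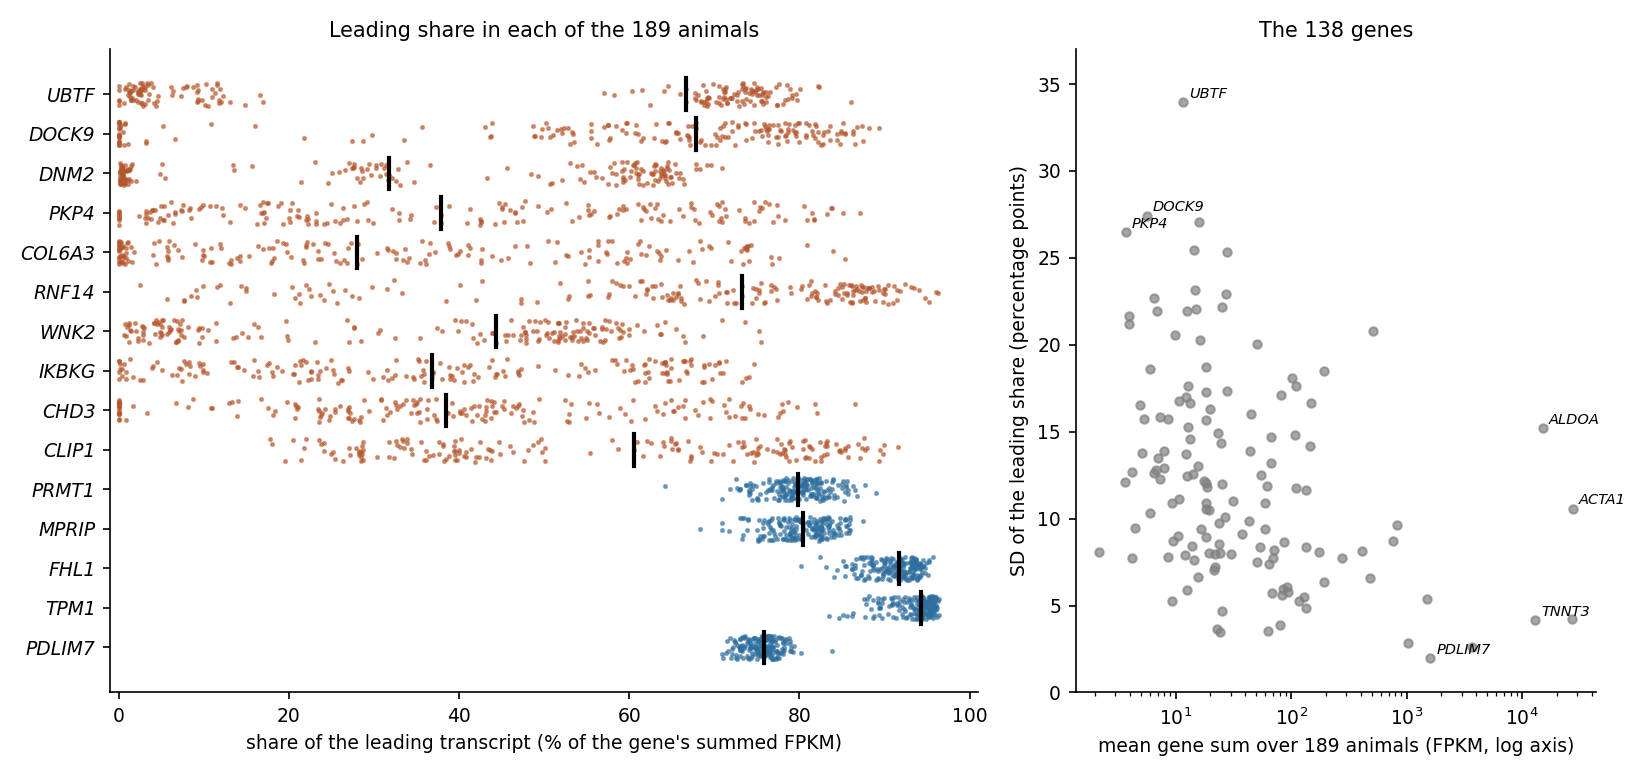
The left panel plots the leading share (percent of the gene's summed FPKM) of each of the 189 animals for the 10 genes with the largest (orange) and the 5 with the smallest (blue) SD, with a black bar at the median; the right panel plots the SD of the leading share against the mean gene sum on a log axis for all 138 genes. UBTF has 69 animals under 10% and 103 over 50%, while every PDLIM7 value lies between 70.9% and 83.8%.

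UBTF, an activator of ribosomal RNA transcription (chr12:18989828-19006929, Sscrofa11.1), had the most variable leading share. Its transcript ENSSSCT00000066156 took 0.0118% of the gene sum in the lowest animal, 66.6% in the median animal and 86.1% in the highest. It was under 10% in 69 animals and over 50% in 103, with few animals in between. The gene sum itself was 11.5 ± 1.41 FPKM (SD, n = 189). In animals where ENSSSCT00000066156 did not lead, ENSSSCT00000018899 led in 46 and ENSSSCT00000058980 in 36. The part of read assignment in these shifts was not tested.

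Wide ranges, again with error in read assignment included, were also seen in DNM2, DOCK9 and PKP4. DNM2, a dynamin that cuts vesicles from membranes (chr2:69474031-69576438), had a leading share of 0.12% at the lowest, 31.8% at the median and 71.0% at the highest. It was under 10% in 64 animals and over 50% in 83, and its second transcript led in 68. DOCK9, an activator of the small GTPase CDC42 (chr11:67764011-68052843), had values of 0%, 67.8% and 89.3%, with 27 animals under 10% and 145 over 50%. PKP4, a plakophilin of cell junctions (chr15:65431379-65681218), ranged from 0% to 87.2% with a median of 37.9%, with 39 animals under 10% and 72 over 50%.

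COL6A3, a chain of the matrix collagen VI (chr15:137011430-137104085), had no settled leader. Its first transcript held 0% to 85.4% (median 28.0%) and led in 71 animals, and the second, ENSSSCT00000047656, held 0.0546% to 99.3% (median 24.1%) and led in 67. The gene sum also varied, at 14.5 ± 11.2 FPKM (SD, n = 189). In bulk muscle fewer cells of a type and less RNA per cell cannot be told apart, and collagen VI is made mainly by interstitial cells.

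In WNK2 and RNF14 the summed share of 2 transcripts varied less than that of the leader alone. For WNK2, a kinase of ion transport (chr3:42711392-42837651), the first transcript held 0.61% to 75.5% (median 44.3%) and the second 15.1% to 98.5% (median 38.2%). Together they held 59.8% to 99.2%, with an SD of 8.28 points against 23.1 for the first alone. For RNF14, a ubiquitin ligase (chr2:143574950-143595933), the leader held 2.58% to 96.3% (median 73.3%, SD 25.3 points), and its sum with ENSSSCT00000037406 had an SD of 12.2 points. Among the 138 genes, 19 had a partner that brought the SD of the sum below 50% of the leader's own SD, and in 77 the steadiest partner was the second transcript. The partner was picked from these same shares as the one with the lowest SD of the sum. The shares of a gene also have a fixed total, so a lower SD is favoured in advance.

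IKBKG, CLIP1 and CHD3 completed the 10 most variable genes. IKBKG, the regulatory subunit of the NF-kB kinase (chrX:125035871-125056443), had a leading share of 0.04% to 74.7% (median 36.8%). CLIP1, a microtubule plus-end protein (chr14:30320344-30469180), had one of 17.8% to 91.6% (median 60.6%) and was led by it in 165 animals. CHD3, a chromatin remodeller on chromosome 12, had one of 0% to 86.6% (median 38.5%), with 18 animals at 0. Its second transcript, a model of 4 exons at chr12:53112230-53117122, did not overlap the leading model at chr12:53135772-53163243, so the CHD3 share compares separate stretches of the locus.

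Of the 11 genes with an SD under 5 points, 4 were contractile and Z-disc genes. PDLIM7, a PDZ and LIM protein of the Z-disc (chr2:80452893-80472663), had a leading share of 70.9% at the lowest, 75.9% at the median and 83.8% at the highest. Its second transcript held 15.9% to 28.5% (median 23.7%), and together they held 98.6% to 99.8%. TPM1, alpha-tropomyosin of the thin filament (chr1:108985778-109019044), had a leading share of 83.4%, 94.3% and 96.4% at a gene sum of 3695 ± 834 FPKM (SD, n = 189). FHL1, a LIM protein of muscle growth and structure (chrX:111310177-111368070), had one of 80.2%, 91.7% and 95.7%. MPRIP, which ties myosin phosphatase to actin, and PRMT1, an arginine methyltransferase, had SDs of 3.50 and 3.56 points at lower sums.

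By function, the 14 contractile and Z-disc genes had a median leading share of 65.1% and a median SD of 8.13 points; 5 were led by 1 transcript in all animals and none had an SD over 20. The 18 genes of membrane, adhesion and matrix had 38.9% and 15.8 points, and 7 exceeded 20. The 23 genes of RNA binding and splicing had 52.8% and 10.9 points, and the 16 of transcription and chromatin 38.8% and 12.3. The 14 grouped as energy metabolism and mitochondria, a broader set than the energy list used below, had 42.1% and 11.2 points. These groups also differ in level and in leading share, which both moved with the SD. The part of either in the group SDs was not tested.

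Within the contractile group, TNNT3 and ACTA1 of the thin filament had the highest sums. TNNT3, fast troponin T (chr2:1299273-1316514), listed 9 transcripts, and its leader ENSSSCT00000046868 held 55.5% at the lowest, 67.6% at the median and 75.1% at the highest. It led in all 189 animals, ahead of forms with medians of 11.5%, 10.8% and 6.55%. ACTA1, skeletal actin (chr14:60412628-60422994), had a leader at 13.4%, 57.8% and 67.3%, which led in 177 animals at a gene sum of 27441 ± 8737 FPKM (SD, n = 189). The range of ACTA1 thus reached far lower than that of TNNT3, although both are near the top of the table.

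Slow-fibre genes were in between. TNNI1, slow troponin I, divided mainly between 1 form at 31.1% to 75.8% (median 61.0%) and another at 16.3% to 48.5% (median 33.0%). MYH7, the slow myosin heavy chain, had a leader at 28.6% to 75.9% (median 64.0%) that led in 187 animals. Its leading model at chr7:75650847-75672910 and ENSSSCT00000035069 at chr7:75677090-75704483 do not overlap, and the neighbouring myosin genes are close relatives, so the split of reads at this locus is uncertain.

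The other sarcomere genes were divided to different degrees. NRAP, an actin-anchoring protein of the muscle cell end with 9 listed transcripts, had ENSSSCT00000011638 at 28.0% to 73.9% (median 44.3%, leading in 98 animals) and ENSSSCT00000047925 at 12.1% to 57.0% (median 43.6%, leading in 91). Their sum was 68.5% to 96.2% with an SD of 4.11 points. MYBPC1, slow myosin-binding protein C, was led by 3 forms in 111, 43 and 35 animals. SVIL, the actin-bundling supervillin, had a usual leader at 1.84% to 38.3% (median 26.4%), while ENSSSCT00000039032 had a median of 0.243% but reached 91.5% and led in 38 animals. PDLIM5 was led by 1 form in 188 animals, at 39.7% to 91.5% (median 74.5%).

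The 2 calcium-handling members differed. CAMK2G, a calcium-dependent kinase, was led by 1 form in all animals at 39.4% to 81.2% (median 64.1%). CACNB1, the beta subunit of the muscle calcium channel, had a first form at 26.3% to 59.0% (median 41.4%, 120 animals) and a second at 0% to 56.1% (median 37.1%, 64 animals).

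**Figure D2:**
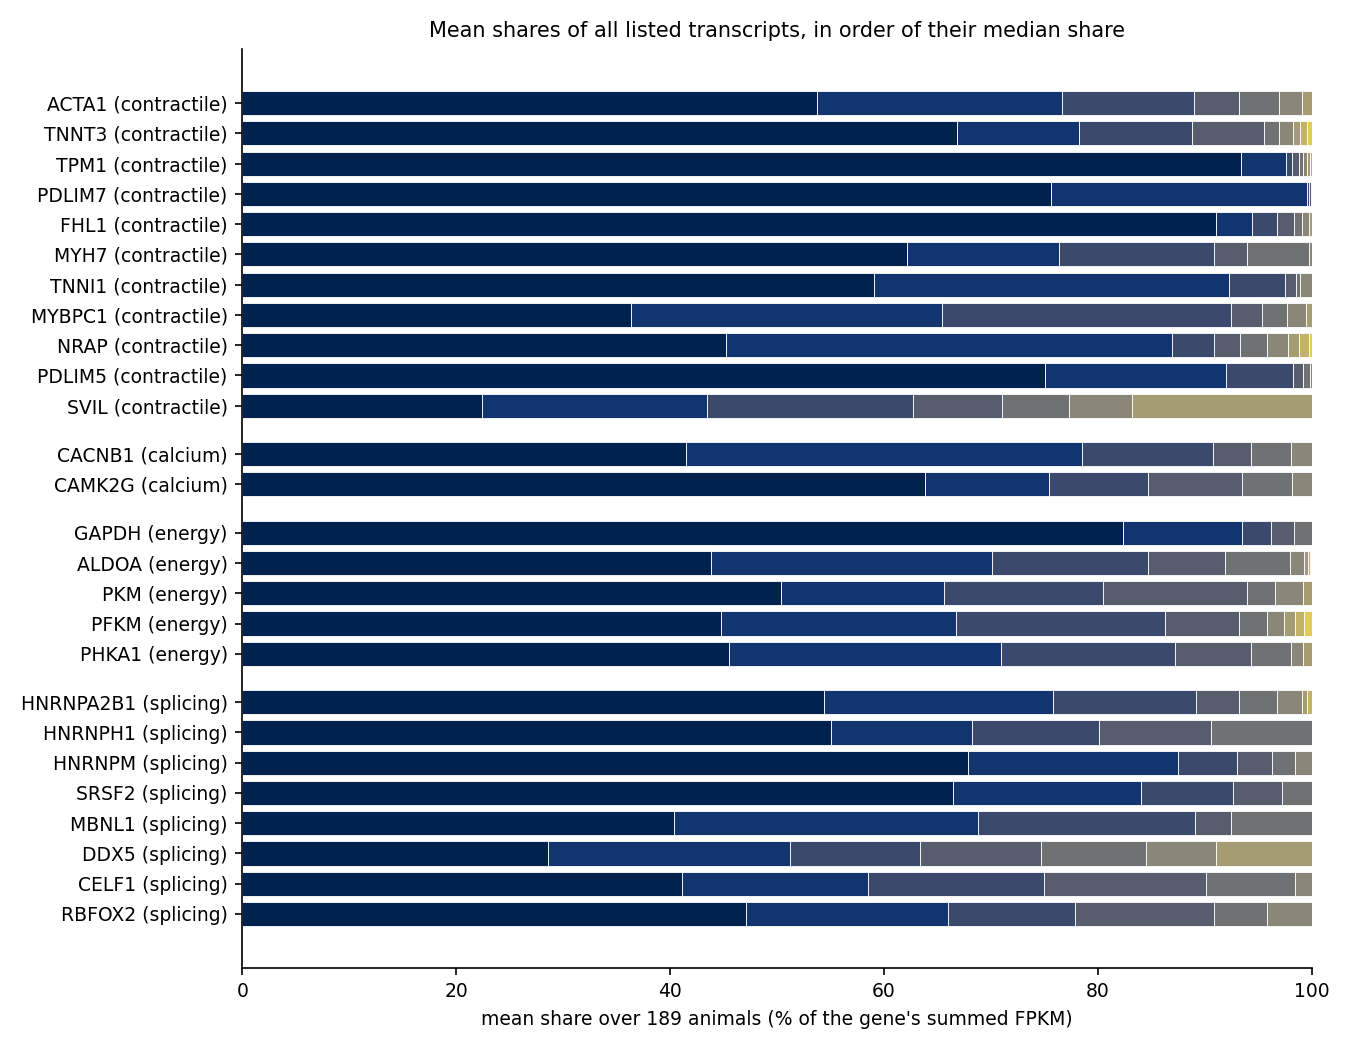
Stacked bars show the mean share over 189 animals (percent of the gene's summed FPKM) of every listed transcript of the members on the contractile, calcium, energy and splicing lists, each bar 1 gene and each shade the rank by median share, darkest first. TPM1 and FHL1 are nearly filled by 1 transcript, while DDX5 and SVIL are divided among many.

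Among the genes of energy supply, GAPDH of glycolysis was led in all animals by a form at 70.7% to 88.7% (median 83.8%), at 27009 ± 6168 FPKM (SD, n = 189). PKM, the pyruvate kinase gene, was led in all animals by a form at 36.8% to 65.1% (median 50.0%). PFKM, muscle phosphofructokinase, had 9 listed transcripts and a leader at 23.6% to 74.9% (median 44.5%). PHKA1, a regulatory subunit of muscle phosphorylase kinase, had a leader that ranged from 0%, in 11 animals, to 88.9% (median 44.3%).

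ALDOA, aldolase A of glycolysis (chr3:18234775-18263324), with the most listed transcripts, was less steady than GAPDH at a comparable level. Its leader held 11.8% at the lowest, 47.6% at the median and 68.2% at the highest (SD 15.2 points) and led in 124 animals. ENSSSCT00000053570 held 6.80% to 56.4% (median 22.3%) and led in 65. ENSSSCT00000048326, in contrast, held 9.09% to 21.1% (median 14.6%) with an SD of 1.89 points. ACTA1, GAPDH, ALDOA and TNNT3 together made up 83.8% of the summed mean FPKM of the 138 genes, and near-identical copies of actin and GAPDH elsewhere in the genome make their read assignment uncertain.

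The RNA-binding proteins that regulate splicing were themselves divided among forms to different degrees. HNRNPA2B1 was led in all animals by a form at 40.2% to 71.8% (median 54.6%). SRSF2 was led in 187 by one at 30.2% to 82.3% (median 67.3%), and HNRNPH1 in 186 by one at 17.8% to 71.4% (median 55.4%). HNRNPM had a leader at 26.3% to 85.0% (median 76.1%, SD 16.0 points) whose sum with a second form had an SD of 6.62 points.

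The other 4 members of the splicing list were MBNL1, RBFOX2, CELF1 and DDX5. MBNL1 had a leader at 0% to 69.4% (median 40.2%) that led in 133 animals. RBFOX2 had one at 10.2% to 75.6% (median 54.3%, 135 animals), and CELF1 one at 18.4% to 62.0% (median 41.4%, 168 animals). DDX5, an RNA helicase, was led by 6 different forms in different animals, its usual leader leading in 97 at 6.71% to 51.6% (median 28.8%). BIN1 and EIF4G1 each had 3 forms that led in some animals. BIN1, which shapes the T-tubules, had a leader at 7.92% to 94.1% (median 32.9%) that led in 93 animals, and EIF4G1, a scaffold of translation initiation, was led by its usual leader in 75 and by ENSSSCT00000055860 in 85.

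The shares moved with the breadth of the library. In a limma fit over all 189 libraries, with the mark as a second term, the log2 ratio of a transcript to the rest of its gene changed with the number of genes at 1 FPKM or more for 449 of the 813 transcripts (55.2%), in 129 of the 138 genes, at an adjusted p under 0.05. Over all 8771 transcripts tested the share was 51.2%, near that of the members. Members were chosen for their many listed transcripts, so at 51.2% most would hold a called transcript. No rate over other genes was computed for the count of genes or of leading transcripts. The ratio rose in 201 and fell in 248 of the 449, and the leading transcript was among them in 78 genes (38 higher, 40 lower). This test was added after the data were seen. Read depth is not known here, so the depth of a library and the RNA it held cannot be told apart in the number of genes.

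The transcripts with the smallest adjusted p were forms of TPM1, HNRNPA2B1, TAF1D, CMYA5, FHL1 and CLIP1, taking 1 per gene. In TPM1 the minor transcript ENSSSCT00000066338, at 0.155% to 2.49% (median 0.442%), rose by 1.60 on the log2 scale per 1000 genes (SE 0.0990, adjusted p = 1.44e-34), and the leader fell by 0.93 (adjusted p = 3.59e-34). In CMYA5, a muscle costamere protein, ENSSSCT00000046729 held 0.967% to 48.7% (median 8.45%) and fell by 1.98 (SE 0.168, adjusted p = 2.27e-22). In FHL1 the second form, ENSSSCT00000036974, at 0.566% to 9.98% (median 2.66%), rose by 1.49 (SE 0.130, adjusted p = 2.06e-21). Apart from the TPM1 leader these were forms of lower share. Slopes were −1.05 for ENSSSCT00000042740 of HNRNPA2B1, −1.05 for ENSSSCT00000058838 of TAF1D, a subunit of an RNA polymerase I factor, and −1.04 for ENSSSCT00000042586 of CLIP1, all past the threshold.

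The genes with the widest ranges were not alike in this respect. The DNM2 leader fell by 2.34 per 1000 genes (SE 0.357, adjusted p = 6.15e-09) and the DOCK9 leader rose by 1.21 (SE 0.266, adjusted p = 4.99e-05). The UBTF leader had a slope of 0.52 (SE 0.412, adjusted p = 0.293) and the BIN1 leader one of −0.29 (SE 0.250, adjusted p = 0.347), neither past the threshold. The ALDOA leader fell by 1.00 (adjusted p = 8.29e-10) and the ACTA1 leader by 0.38 (adjusted p = 0.00152). Within the 21 re-analyzed libraries alone, 7 of the 813 transcripts passed, beside 55 of 8771 over the whole table. Within the unmarked libraries alone 451 of the 813 did, beside 4515 of 8771. The re-analyzed fit had fewer libraries, so the counts of the 2 fits cannot be compared directly.

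No transcript share of the 138 genes passed the test for a change with IMF. In the limma fit of 164 animals with IMF and the mark, 0 of 813 transcripts passed an adjusted p under 0.05, and 1 of 8771 (0.0114%) did over the whole table. At an unadjusted p under 0.05 there were 31 of 813 (3.81%), against 382 of 8771 (4.36%). The smallest adjusted p among the members was 0.433, for the FHL1 transcript ENSSSCT00000035444, which held 0.493% to 12.0% (median 1.45%). Its slope was 0.14 on the log2 scale per unit of IMF (SE 0.0402), or 0.115 percentage points with a 95% interval of −0.0305 to 0.260. The next was the steady ALDOA transcript ENSSSCT00000048326, with a slope of −0.06 (SE 0.0165, adjusted p = 0.610) and −0.456 points (−0.718 to −0.195).

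The leading transcripts of the 138 genes had slopes on either side of 0. Of them, 82 were positive and 56 negative, with a median of 0.0957 percentage points per unit of IMF. The steepest negative slope was −1.93 points, for RBFOX2. The median SE was 0.755 points. The 95% interval left out 0 for 5 of the 138 leading transcripts, without adjustment for their number. For 67 of the 138 the 95% interval lay within ±2 points per unit, so that larger slopes were outside it, and for the others the interval was wider. The slope differed between the re-analyzed and the unmarked animals for 0 of 813 transcripts and for 0 of 8771 in all (0%) by the same tool, with 40 of 813 (4.92%) and 357 of 8771 (4.07%) at an unadjusted p under 0.05. That comparison was also added after the data were seen.

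**Figure D3:**
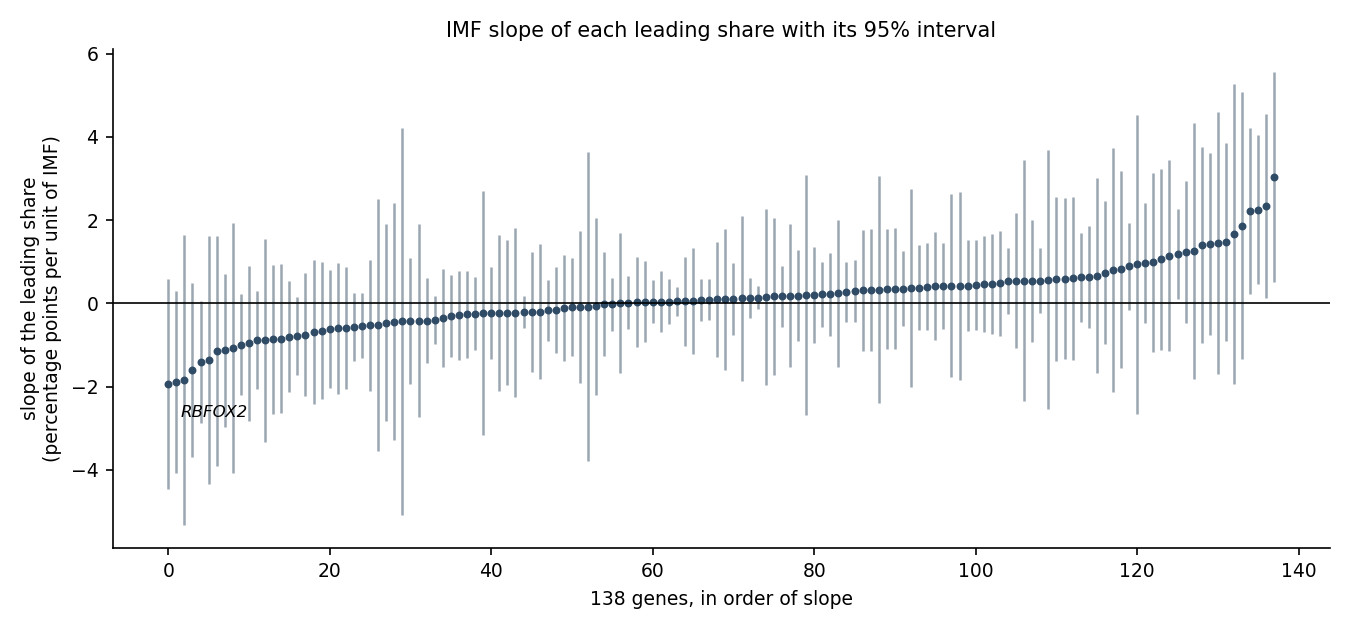
Points show the slope of the leading share of each of the 138 genes, in percentage points per unit of IMF, in order of size, with bars for the 95% interval over 164 animals. The lowest slope is −1.93 (RBFOX2), and most intervals include 0.

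The gene sums were compared with IMF in the same way. Of 9447 genes tested, 7 (0.0741%) had a gene sum that changed with IMF, and 0 of the 138 members did, with a smallest adjusted p of 0.551 (limma). At an unadjusted p under 0.05 there were 10 members (7.25%) and 480 of all genes (5.08%).

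The re-analyzed and unmarked libraries differed in many shares. With IMF in the model, 128 of 813 transcripts (15.7%) differed at an adjusted p under 0.05, in 70 of the 138 genes, and 1484 of 8771 (16.9%) did over the whole table. By transcript, the members were thus close to the background. Genes with many listed transcripts have more chances to hold a called transcript. The counts of genes and of leading transcripts were not set beside other genes. Of the 128, 74 were higher and 54 lower in the re-analyzed libraries, and 25 were leading transcripts (17 higher, 8 lower). Of the 128, 73 had a median share under 10%, as did 428 of all 813. Whether the mark is a sequencing run, an analysis or something else is not given in the labels, so it cannot be told apart from the animals that carry it.

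The marker sums of other cell types had different medians in the 2 sets. The adipocyte markers, all 5 measured, summed to a median of 82.8 FPKM in the re-analyzed (33.6 to 252) and 125 FPKM in the unmarked libraries (20.6 to 2861). The 5 fibroblast markers had medians of 669 and 995 FPKM, the 3 endothelial markers 36.8 and 50.5, the 3 macrophage markers 7.80 and 12.0, and the 1 measured nerve marker of 3 had 6.10 and 11.0. All of these genes had a lower median in the re-analyzed libraries, and 4 of the 7 fibre markers did. Their part in the shares was not tested. With the number of genes at 1 FPKM or more as a further term, 171 of 813 member transcripts differed between the sets. Among all transcripts tested, 1834 of 8771 did, so both counts were higher than without this term (128 and 1484).

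In the contractile list 16 of 77 transcripts differed (20.8%, beside 16.9% of all transcripts tested), 5 higher and 11 lower, in 7 genes. In NRAP the 2 main forms moved in opposite directions. Together they held a median of 87.7% of the gene sum, so a rise of 1 largely entails a fall of the other. The 2 tests are therefore not separate results. ENSSSCT00000047925 held 18.4% to 48.3% (median 27.8%) in the re-analyzed and 12.1% to 57.0% (median 43.7%) in the unmarked animals, a change of −0.77 on the log2 scale (SE 0.118, adjusted p = 3.38e-07). ENSSSCT00000011638 held 42.7% to 70.1% (median 54.8%) and 28.0% to 73.9% (median 43.7%), a change of 0.66 (adjusted p = 5.39e-07). The ranges overlapped in both forms.

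Minor forms of 3 further muscle genes differed. In TPM1, ENSSSCT00000038839 held 0.423% to 0.605% (median 0.482%) in the re-analyzed and 0.164% to 0.555% (median 0.280%) in the unmarked animals, a change of 0.63 (SE 0.0974, adjusted p = 3.38e-07). In MYBPC1, ENSSSCT00000060944 had medians of 0.157% and 0.412%, a change of −0.84 (SE 0.156, adjusted p = 2.31e-05). In FHL1, ENSSSCT00000033830 had medians of 0.597% and 0.799%, a change of −0.34 (SE 0.0744, adjusted p = 0.000336). All 3 are under 1% of their gene, and with the share in percent they did not pass, at adjusted p of 0.276, 0.0909 and 0.248.

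Forms with larger shares differed in BSCL2, PLEKHM2 and ZNF106. In BSCL2, which encodes the lipid-droplet protein seipin, ENSSSCT00000061218 held 31.8% to 82.9% (median 53.3%) in the re-analyzed and 22.8% to 80.3% (median 35.6%) in the unmarked animals, a change of 0.99 (SE 0.156, adjusted p = 5.39e-07). In PLEKHM2, a kinesin adaptor of lysosomes, ENSSSCT00000003854 held 51.2% to 89.0% (median 64.9%) and 26.8% to 88.1% (median 46.9%), a change of 1.11 (adjusted p = 6.29e-05). In ZNF106, an RNA-binding protein of muscle and nerve, ENSSSCT00000064218 held 13.9% to 51.7% (median 38.1%) and 14.5% to 66.1% (median 53.1%), a change of −0.81 (adjusted p = 3.72e-05). Every one of these ranges overlapped between the sets.

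The other 5 genes with the smallest adjusted p had forms of lower share. In PSAP, the precursor of the lysosomal saposins, ENSSSCT00000059674 had medians of 7.68% in the re-analyzed and 2.12% in the unmarked animals, a change of 1.21 (SE 0.187, adjusted p = 3.38e-07). In DGKZ, a diacylglycerol kinase, ENSSSCT00000048691 had medians of 18.0% and 5.74% (0.96, adjusted p = 0.000113). In SPTBN1, beta-spectrin of the membrane skeleton, ENSSSCT00000055149 had medians of 21.4% and 5.80% (1.54, adjusted p = 0.000261). In PSAP, DGKZ and SPTBN1 the re-analyzed animals had the higher median, and the ranges of the sets overlapped.

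HSPA8, a constitutive chaperone, had ENSSSCT00000064374 at medians of 7.08% and 10.1% (−0.58, adjusted p = 1.52e-06), with processed copies elsewhere in the genome that make its reads uncertain. PCDHGC4, of the clustered protocadherins that share their 3′ exons, had ENSSSCT00000015723 at medians of 2.89% and 2.15% (0.50, adjusted p = 1.62e-07). Its gene sum in the re-analyzed animals had a median of 5.55 against 8.69 FPKM, and in percent its share did not pass (adjusted p = 0.135). Of the 128 transcripts, 4 pointed the other way in percent, in ALPK3, MAP4K4, PCDHGC4 and WNK1. The PCDHGC4 form among them is not ENSSSCT00000015723, which was higher in the re-analyzed animals on both scales.

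**Figure D4:**
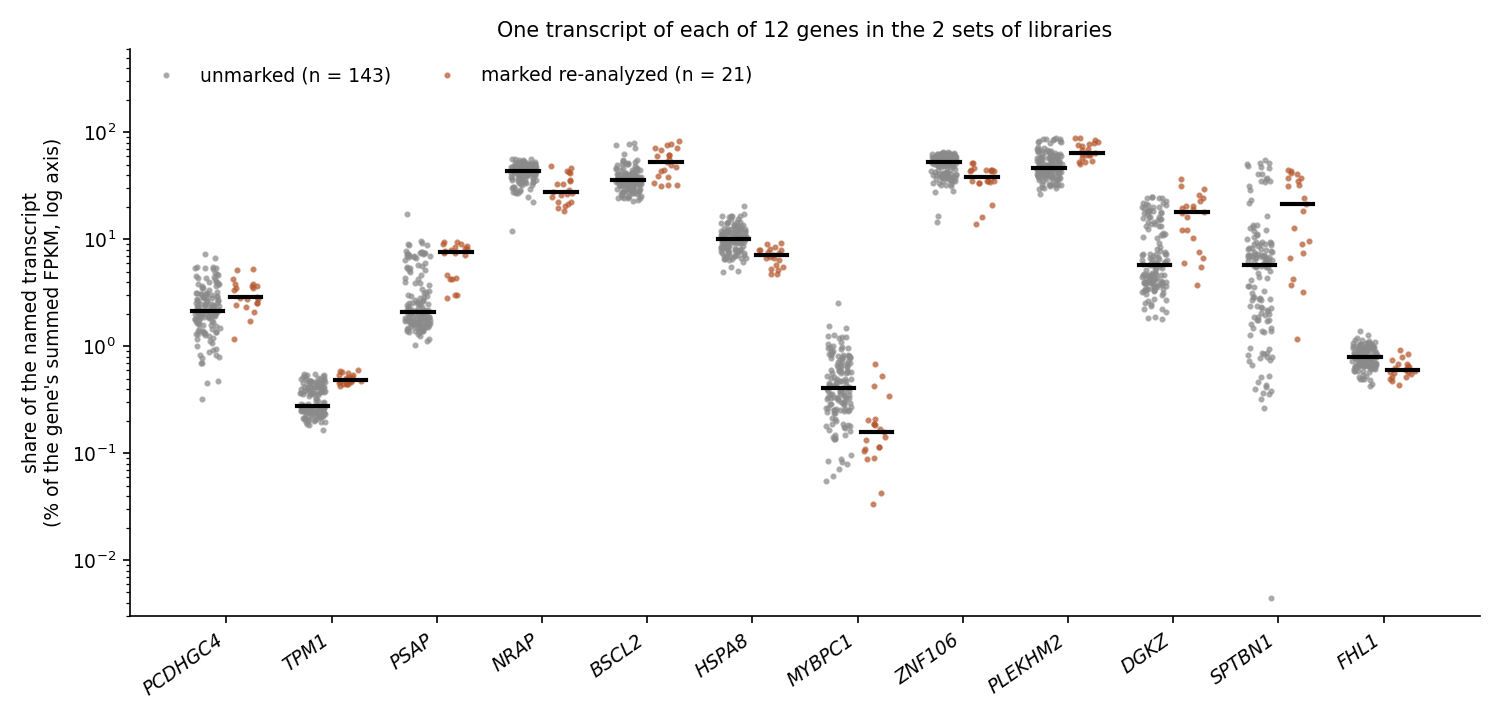
Points show the share of 1 transcript (percent of the gene's summed FPKM, log axis) of each of 12 genes in the unmarked (grey, n = 143) and re-analyzed (orange, n = 21) animals with IMF, with black bars at the medians. The ranges of the sets overlap in every gene, and the PSAP medians are 2.12% and 7.68%.

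The other lists are given beside the 16.9% of all transcripts tested. In the splicing list 12 of 48 transcripts differed (25.0%), 6 in each direction. The energy list, with 6 of 38 (15.8%), was near the background, and in the calcium list 1 of 12 differed (8.33%). Among the genes of transcription and chromatin 5 of 88 transcripts differed (5.68%), and among those of membrane, adhesion and matrix 16 of 108 (14.8%; 13 higher, 3 lower).

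Title codes differed in the share of 1 member transcript, a fraction of the members near that called over the whole table. The moderated F test of limma over 48 codes called 10 of 8771 transcripts (0.114%), and 1 of 813 among the members. At an unadjusted p under 0.05 there were 68 of 813 (8.36%), against 636 of 8771 (7.25%). The intraclass correlation, the part of the variance lying between codes, had a median of 0.0150 over the members. For leading transcripts it ran from −0.235 to 0.256, with a median of 0.0185.

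The transcript was ENSSSCT00000038258 of TUBB2B, a beta-tubulin (chr7:1908195-1955951). It held 0% to 24.1% of the gene sum (median 4.50%) and was at 0 in 8 animals. In animals that share a code it was at 0 to 3.87 FPKM, so its low values lay near the 0.5 added before the log ratio. Its median share by code ran from 0.520% to 16.6% (F = 2.88, adjusted p = 0.00579, intraclass correlation 0.381). Animals of 1 code could be close, as at 1.03% and 1.31%, or far apart, as at 9.05% and 24.1%. Within the first 6 digits of the title the difference between codes did not pass (adjusted p = 0.361). Without the library of sample 61 a second member transcript passed, ENSSSCT00000044440 of ZNF106 (adjusted p = 0.0308, against 0.0751 with that library). The called model spans 2 separate models, ENSSSCT00000040472 at chr7:1908195-1914714 (median 43.3%, leading in 128 animals) and ENSSSCT00000061609 at chr7:1949671-1955951 (median 36.0%, leading in 61). Tubulin genes are near-identical copies of each other, so reads at this locus may be divided unreliably.

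**Figure D5:**
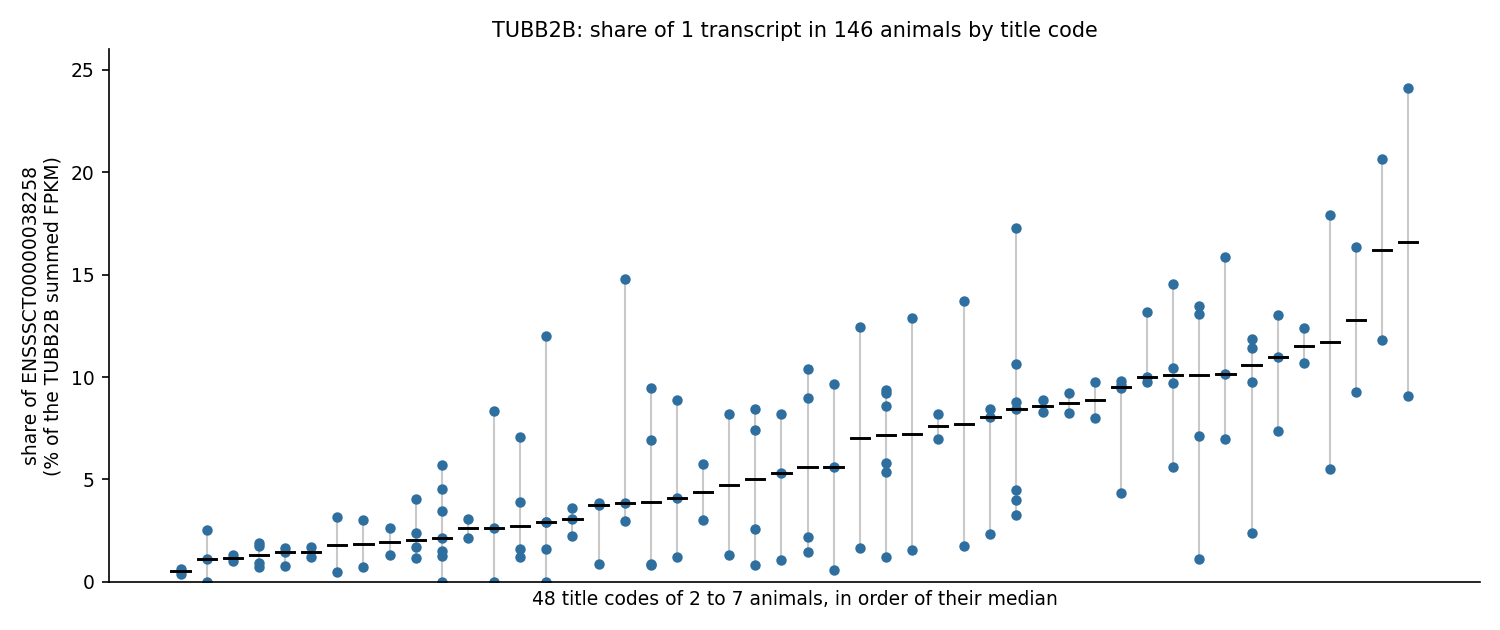
Points show the share of ENSSSCT00000038258 in the summed FPKM of TUBB2B (percent) in 146 animals, grouped by the 48 title codes held by 2 to 7 animals and ordered by the median of each code (black bar). Code medians run from 0.520% to 16.6%, and the ranges of neighbouring codes overlap.

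The gene sums were also compared between codes. Among all genes tested, 184 of 9447 genes (1.95%) passed, and 1 of the 138 members did. At an unadjusted p under 0.05 there were 27 members (19.6%) and 1804 of all genes (19.1%). It was PAM, the enzyme that amidates secreted peptides, with an adjusted p of 0.0317 and an intraclass correlation of 0.290. The PAM call was lost without the library of sample 39 (adjusted p = 0.0741) and without that of sample 61 (adjusted p = 0.0917), and without sample 61 the count over all genes was 48.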

How the data were processed

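FPKM per transcript were estimated by the authors and deposited as 1 table, a unit taken from the size and range of the values because no header names it. The submitters' processing notes name HISAT2 2.0.5, StringTie 1.3.3 and the build Sscrofa11.1, and the labels' protocols a NEBNext Ultra polyA kit read as 150-base pairs. For strand setting, annotation release and filters, nothing is given in the sources used here, so overlapping and antisense genes cannot be told apart. Assignment of reads among transcripts is an estimate and adds error to each share.

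Shares are 100 times transcript FPKM over the gene sum. They are undefined where the sum is 0 (CYP2B6 in 5 animals, 25 values, dropped from fits). Tests used log2((transcript + 0.5)/(rest of the gene + 0.5)) in genes with 2 or more transcripts and a mean sum of at least 1 FPKM (3435 of 3557 genes, 8771 transcripts, all 138 members). In genes with exactly 2 transcripts, 52.1% of those tested, the ratios mirror each other. limma 3.58.1 (R 4.3.3, trend on) gave slopes on IMF with the mark, mark differences with IMF, F over codes with the mark, and slopes on genes at 1 FPKM or more, with Benjamini-Hochberg adjustment over all transcripts tested. Gene sums were tested as log2(FPKM + 1) in 9447 genes. The code was tested on simulated data. Descriptions used Python 3.11.15, pandas 2.3.3, numpy 2.4.6 and scipy 1.17.1.

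Members, functional groups and lists were chosen with earlier results of these data known. Genes were named by rule: the 10 largest and 5 smallest SDs of the leading share, the 10 with most transcripts, the 10 highest sums, members of 4 lists, and up to 12 called genes per test. Other genes named (MAPKAP1, MBD1, TSC2, SPTAN1, HSP90AB1, ALPK3, MAP4K4, WNK1 and PAM) were chosen after their values were seen. Alternatives covered pseudocounts, share in percent, filters, left-out libraries, the mark and title digits. One result on a withheld item is not reported here.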

Additional observations from a re-analysis of the deposited data

How the results depend on the processing

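The median leading share over the 138 genes was 45.1% to 45.2% and the median SD no higher than 11.7 points with unmarked libraries only or without sample 39 or 61. For IMF and shares, the 1 transcript called over the table became 0 with a pseudocount of 0.1, the share in percent, a mean sum of at least 5, unmarked libraries only, re-analyzed libraries only, and after leaving out the animals with the 2 lowest and 2 highest IMF, and members stayed at 0 in each of these. For the mark, the share in percent gave 950 over the table and 76 members. For title codes and shares, the share in percent gave 21 over the table. Codes within the first 6 title digits gave 0 members and 9 over the table, while without sample 61 there were 2 and 12. For gene sums and IMF, the 7 became 12 with a pseudocount of 0.1, 22 without sample 39 and 0 with unmarked libraries only. For gene sums and codes, the 184 became 53 with unmarked libraries only, 139 without sample 39, 48 without sample 61 and 100 with each library at a common median. The 1 member became 2 with a pseudocount of 0.1, beside 174 of 9447 over all genes. With a mean sum of at least 5 it became 6 of 129, beside 189 of 4804. The member count was 0 without sample 39, without sample 61, with unmarked libraries only and at a common median. For the slope on the number of genes, re-analyzed libraries alone gave 55 over the table and 7 members, with fewer libraries in the fit. There the TAF1D transcript ENSSSCT00000058838 went from −1.05 to 0.00133. The named forms of HNRNPA2B1, CMYA5, FHL1 and CLIP1 kept their direction but lost the call, and TPM1 ENSSSCT00000066338 kept it (limma, adjusted p = 0.00931). Over single transcripts and genes, 165 repeats kept the side of the threshold, and the direction where the test has one. These include F tests over codes, which have no direction, and IMF slopes of FHL1 and ALDOA that were never called. Another 13 repeats lost the call and 1 reversed. The causes of these changes were not tested. Read depth is unknown, which limits what can be said of small shares.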
